A study of Homo sapiens with 72 samples.

Results

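A total of 71 long non-coding RNA (lncRNA) genes, of 96411 listed, were higher in the Ras-transformed breast line MCF10A-M2 (M2) than in both its parent MCF10A-M1 (M1) and the breast cancer line MDA-MB-231 at 0 h. They were chosen by their own levels at 0 h, in TPM (a length-corrected share of a library's transcripts). In each line the mean over 6 libraries, plus 0.5, was taken. Of these 6 libraries, 3 were non-stimulated. The other 3 are titled 0 h but labelled as given an inhibitor of the TGF-β receptor kinase (SB, described below) for 0.5 h. The choice at 0 h thus mixes untreated and inhibitor-treated cells. A member had an M2 mean of at least 1 TPM, a value at least 2.5 times that of M1 and of MDA-MB-231, and all 6 M2 libraries above all 6 M1 libraries. The rule allowed up to 100 genes, in order of the M2 to M1 ratio, and the members are called by their rank in that order. Of the genes listed, 10292 reached 1 TPM in M2, and 155 of these reached 2.5 times M1. Of those, 107 had no overlap with M1, and 71 also reached 2.5 times MDA-MB-231. The rule kept 45 of the 71 members with the non-stimulated libraries alone and 63 with the SB libraries alone.

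LncRNAs are transcripts that do not code for a protein; many are made at low levels and in few cell types, and some act in the nucleus on the genes near them. Ras is a small GTPase that passes growth factor signals to the MAP kinase and PI3 kinase pathways, and activated forms of it transform cells. TGF-β binds type I and type II receptor kinases that phosphorylate SMAD proteins, halts growth in normal mammary epithelium, and in Ras-transformed epithelium takes part in the epithelial-mesenchymal transition.

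The parent, M1, comes from non-malignant mammary epithelium, and M2 was made from MCF10A by transformation with HA-Ras. MDA-MB-231 derives from a triple-negative breast cancer. Cells of all 3 lines were kept without serum overnight and then given TGF-β at 5 ng/mL or SB431542 (SB), an inhibitor of the type I TGF-β receptor kinase, at 10 µM, with ligand buffer and DMSO as the vehicles. Total RNA was sequenced at 0, 2, 8 and 24 h in 3 replicates of each of 24 groups, 72 libraries in all; the labels call the TGF-β group at 0 h the non-stimulated control, and the first SB group is titled 0 h but labelled 0.5 h in its treatment field. Whether SB had acted by then was not tested; the TPM summed over ranks 7 to 71 in M2 were 4390 to 5881 in the non-stimulated libraries and 6784 to 7520 in the first SB libraries, with no overlap. M2 is a single transformed derivative, so the Ras transformation and other differences between these 2 cultures cannot be told apart. The table used here holds lncRNA genes alone, so the level of HA-Ras and protein-coding markers of the lines were not analysed here. The labels do not say that replicates came from separate cultures, although the series text calls them biological; if they did not, the p-values reflect only how these samples scatter, which may be technical.

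Since TPM hold no read numbers, neither library depth nor the counting error of a value is known. Between 8458 and 16748 lncRNA genes per library reached 0.5 TPM, and the number followed line and hour. It was 14205 to 16748 in M1 and 10144 to 13692 in MDA-MB-231. In M2 it was 12430 to 14299 at 0 h and 8458 to 10138 at 24 h, the lowest of the series. Lower values of members in M2 at 24 h thus coincide with fewer genes detected there, and whether the 2 are linked was not tested. In bulk RNA, fewer cells that make a transcript and less of it per cell cannot be told apart. In 4 libraries the members of ranks 1 to 6 together held over 1% of all TPM: M2 at 24 h of TGF-β, replicate 2 (3.61%), M2 at 0 h of SB, replicate 1 (18.9%), M2 at 2 h of SB, replicate 3 (21.7%) and MDA-MB-231 at 24 h of TGF-β, replicate 2 (14.1%). Because TPM in a library sum to a fixed total, such a rise lowers the values of the other genes there. For single comparisons, most counts of calls over all members that rest on these libraries are given with and without them. Other counts, such as those joined over comparisons or lines and those of libraries that do not overlap, are given with them only.

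The values that chose the members are a description, with no test. The median M2 to M1 ratio was 3.10, and 59 of the 71 members had a ratio under 5. Only ranks 1 to 6 exceeded 10, and a further 6 lay between 5 and 10. Median levels over the members at 0 h were 10.4 TPM in M2, 2.47 TPM in M1 and 0.272 TPM in MDA-MB-231. Just inside the limit of 2.5 the 3 lowest ratios to M1 were 2.51, 2.53 and 2.53, and the 3 genes just outside had 2.49, 2.44 and 2.41. For MDA-MB-231 the values were 2.502, 2.60 and 2.74 inside and 2.36, 2.31 and 2.198 outside.

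The word gained describes few of these genes. In M1 at 0 h, 49 of 71 already had a mean of 1 TPM or more, 17 had 10 TPM or more, and 4 had 100 TPM or more. A mean under 0.5 TPM in M1 was found for 14 members, and none was listed at 0 in all 6 M1 libraries. The members were therefore mostly raised, rather than switched on, in M2 relative to M1. Compared with MDA-MB-231 the contrast was sharper: 39 members had a mean under 0.5 TPM there at 0 h, and 28 were under 0.5 TPM in all 24 MDA-MB-231 libraries. For 13 members the mean at 0 h was higher in MDA-MB-231 than in M1.

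**Figure D1:**
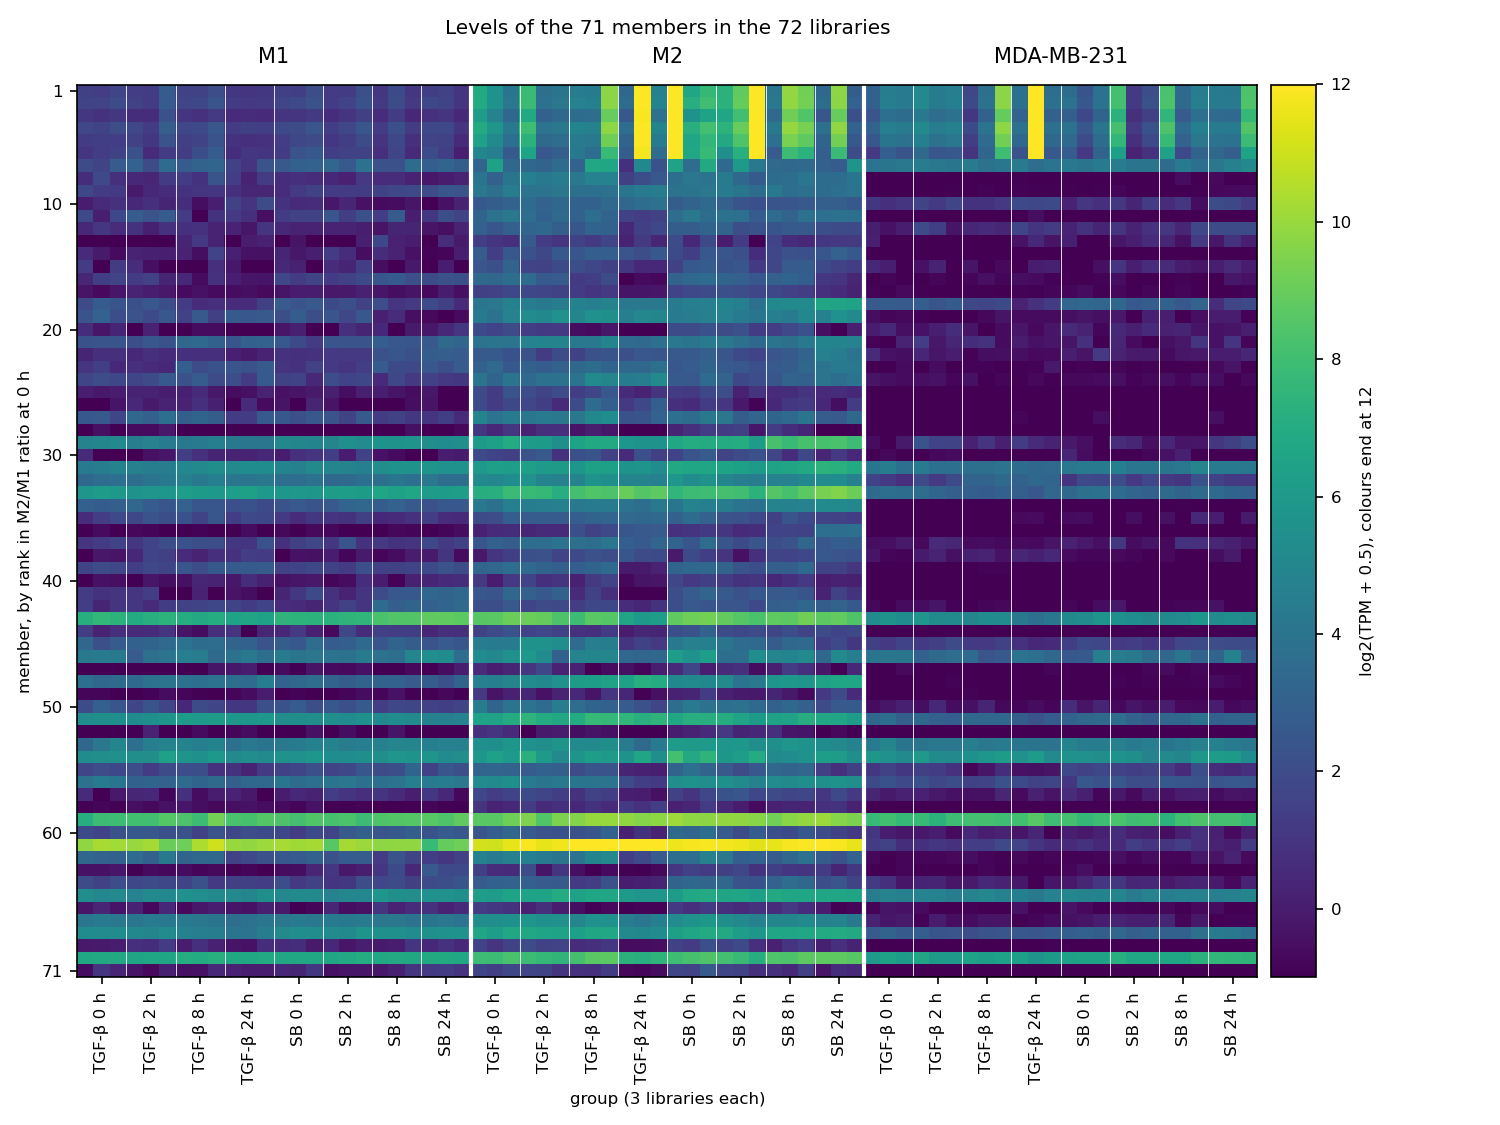
Level of each member (rows, by rank in the M2 to M1 ratio at 0 h) in each of the 72 libraries (columns, in groups of 3), as log2(TPM + 0.5) with colours ending at 12. Most rows are brightest in M2 but visible in M1, 28 rows are dark in all 24 MDA-MB-231 libraries, and the top 6 rows jump together in single libraries.

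The members of ranks 1 to 6 differed from the other 65 in size and in spread. Rank 1 had TPM of 118, 51.5 and 16.2 in the 3 non-stimulated M2 libraries and 40065, 102 and 199 in the 3 M2 libraries at 0 h of SB. Its 6 M1 libraries at 0 h lay between 2.104 and 3.65, and its 6 MDA-MB-231 libraries between 4.61 and 22.02. A single library thus set its ratio of 2225 to M1; without that library the ratio was 32.2 to M1 and 7.07 to MDA-MB-231. Without the same library ranks 2 to 6 had ratios of 32.6, 24.5, 31.3, 29.3 and 22.2 to M1 and of 8.22, 5.90, 8.27, 8.19 and 14.5 to MDA-MB-231, so that all 6 still met the limit of 2.5.

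These 6 members rose and fell together where differences were large, and less closely in M1. Over the 72 libraries their 15 pairwise correlations on the log2 scale ran from 0.977 to 0.9998, a description, since the libraries share lines and treatments. The TPM of rank 2 was 0.964 to 1.48 times that of rank 1 in every library. Rank 6 followed rank 1 less closely. In M1 at 2 h of TGF-β rank 1 had 2.03, 1.90 and 6.67 TPM, and rank 6 had 4.32, 1.03 and 2.02 TPM. Of the 6, 3 have identifiers close together in the catalogue: ranks 2 and 4 lie 3 numbers apart and ranks 4 and 1 lie 1 apart. Whether the 6 share sequence or reads could not be examined, since no sequence was used here. A total of 10 genes, ranks 1 to 6 among them, were at least 20 times their line's median and at 50 TPM or more in each of the 4 libraries that stand apart, where they held 3.92 to 23.0% of all TPM, against 0.00203 to 0.465% in the other libraries.

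No arm or hour held ranks 1 to 6 at one level. In the 21 other M2 libraries rank 1 ranged from 6.71 to 944 TPM with a median of 51.6, in the 23 other MDA-MB-231 libraries from 1.82 to 867 TPM with a median of 18.8, and in the 24 M1 libraries from 1.42 to 6.67 TPM with a median of 2.13. The ranges of M2 and MDA-MB-231 overlapped over most of their length, and the 24 M2 libraries all lay above the highest M1 library. Replicates of 1 group could differ by orders of magnitude: at 24 h of TGF-β the 3 M2 libraries read 9.99, 6980.0 and 25.3 TPM, and the 3 MDA-MB-231 libraries 13.1, 30300.0 and 12.6 TPM. In 1 MDA-MB-231 library rank 1 thus reached a level within the range of the M2 libraries that stand apart.

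**Figure D2:**
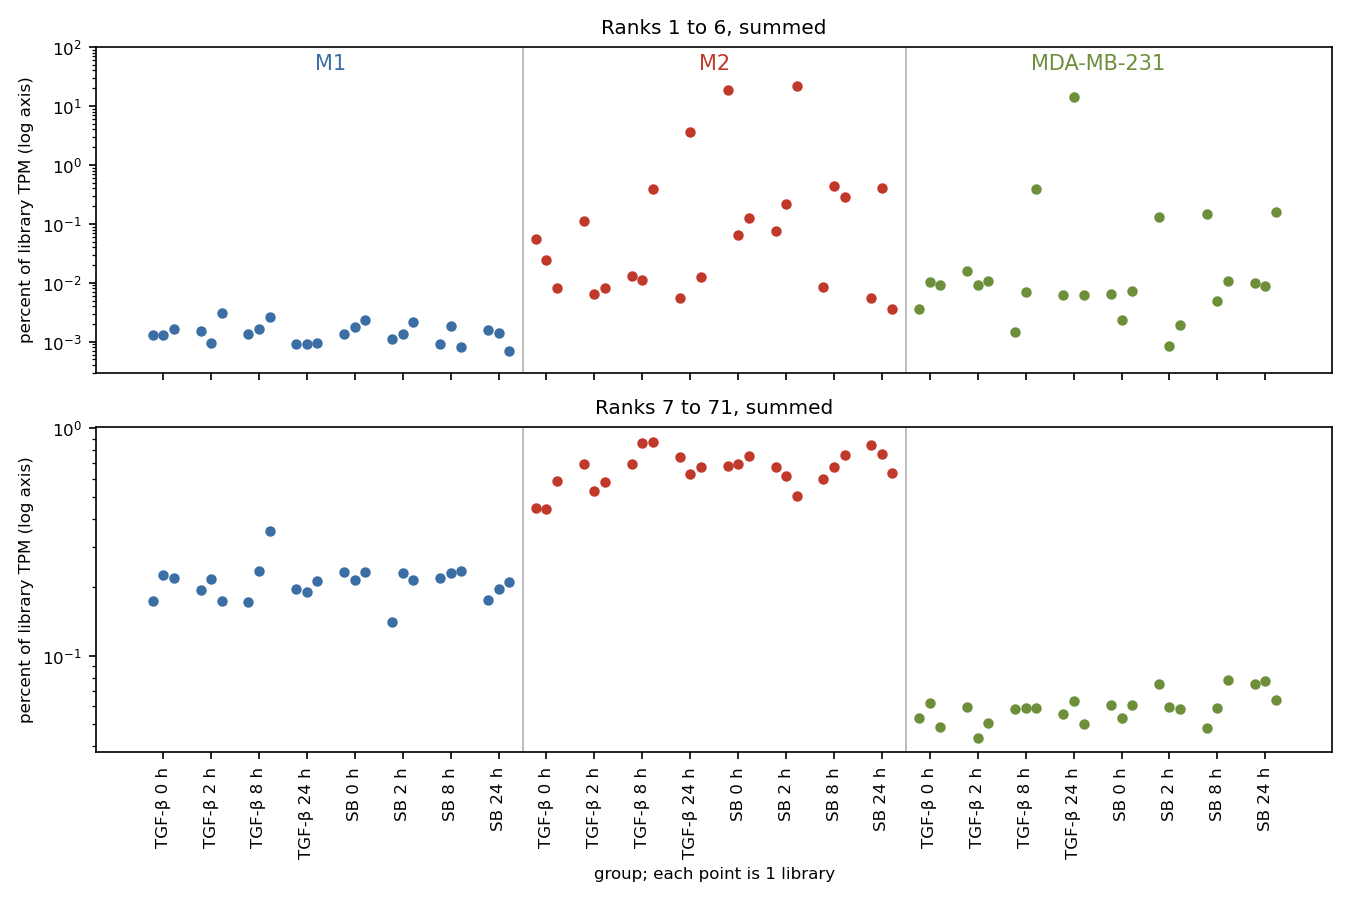
Percent of all TPM (log axes) held by ranks 1 to 6 (top) and by ranks 7 to 71 (bottom), 1 point per library, in groups of 3. Above, 3 M2 libraries and 1 MDA-MB-231 library pass 1%. Below, the 24 M2 libraries (0.439 to 0.872%) lie above the 24 M1 libraries (0.141 to 0.355%) and these above the 24 MDA-MB-231 libraries (0.0436 to 0.0780%). At 0 h the rule set the order of M2 above M1, and of the M2 mean above the MDA-MB-231 mean.

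The other 65 members were steadier. Together they held 0.439 to 0.872% of TPM in the 24 M2 libraries (median 0.676%), 0.141 to 0.355% in the 24 M1 libraries (median 0.215%) and 0.0436 to 0.0780% in the 24 MDA-MB-231 libraries (median 0.0588%). The 3 ranges did not overlap at any time or in either arm. At 0 h the rule set the order of M2 above M1, and of the M2 mean above the MDA-MB-231 mean. In the libraries at 2, 8 and 24 h, which the rule did not use, the summed share was at least 0.506% in M2. It was at most 0.355% in M1 and at most 0.0780% in MDA-MB-231. A large part of this sum was 1 gene: rank 61, singled out after its values were seen, had 2217, 2105 and 2963 TPM in the non-stimulated M2 libraries, 915, 1242 and 1175 TPM in those of M1 and 1.98, 2.504 and 1.11 TPM in those of MDA-MB-231. At 24 h of TGF-β it read 5003, 4030.0 and 4323 TPM in M2 and 1030.0, 952 and 1080.0 TPM in M1.

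Ranks 7 to 10 behaved differently from one another. Rank 7 varied between replicates of M2: 8.86, 85.0 and 9.69 TPM without stimulation, 90.5, 11.99 and 119.9 TPM at 0 h of SB, and 7.99, 112 and 104 TPM at 8 h of TGF-β. In M1 at 0 h it lay between 2.67 and 7.87 TPM and in MDA-MB-231 between 14.8 and 20.9 TPM, so that 3 of the 6 M2 libraries at 0 h were below every MDA-MB-231 library. Its high libraries were not the 4 that stand apart, except for 2 of them.

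Rank 8 was almost exclusive to the MCF10A derivatives. It had 16.0, 7.63 and 16.1 TPM in non-stimulated M2, 1.15, 3.18 and 1.23 TPM in M1, and was listed at 0 in 21 of 24 MDA-MB-231 libraries. Rank 9 had 17.7, 13.3 and 22.1 TPM in M2, 3.06, 1.88 and 1.83 TPM in M1, and at most 0.161 TPM in any MDA-MB-231 library. Rank 10 was lower throughout, with 5.43, 6.75 and 8.14 TPM in M2, 0.484, 0.983 and 1.28 TPM in M1 and 1.64, 1.21 and 1.46 TPM in MDA-MB-231. In each of these 3 genes all 6 M2 libraries at 0 h lay above all those of both other lines.

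Whether the line difference was also there in libraries that had not chosen the members was tested at 2, 8 and 24 h with limma on log2(TPM + 0.5), with a gene called at an adjusted p under 0.05; on this scale changes of low genes are understated. All 71 members passed the filter of 0.5 TPM in 3 libraries, some through M2 alone: 65 also passed in M1 by itself and 38 in MDA-MB-231 by itself. A member that passed through M2 alone was bound to read higher there, so the line differences are read over the 65 and the 38, against genes that passed the same way. At 2 h, 47 of the 65 were higher in M2 than in M1 with TGF-β and 54 with SB, where 3.84% and 1.85% of genes that passed in M1 were. At 8 h the counts were 44 and 50, against 3.49% and 2.88%. At 24 h they were 36 and 39, against 2.35% and 2.90%. The median log2 difference over the 65 was 1.65, 1.41 and 0.88 at 2, 8 and 24 h of TGF-β, and 1.23, 1.54 and 1.26 with SB, while the median over genes that passed in M1 ran from -0.44 to -0.87.

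Over all 71, a description, 51, 48 and 38 were called higher at 2, 8 and 24 h of TGF-β (4.09%, 3.92% and 2.86% of all genes tested) and 58, 55 and 42 with SB (2.05%, 3.10% and 3.26%). Without the libraries that stand apart these counts were 52, 55 and 30 with TGF-β and 56, 55 and 49 with SB.

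No member was called lower in M2 than in M1 at 2 or 8 h of either arm, where 23.6%, 30.6%, 39.7% and 43.1% of all genes were (TGF-β at 2 and 8 h, then SB at 2 and 8 h); by limma's unadjusted p under 0.05 the count was also 0. At 24 h, 8 members were lower with TGF-β and 9 with SB, against 48.3% and 54.3% of all genes, and without the libraries that stand apart 6 and 9. All the lower members were among the 65. The next counts, over all 71, include members that passed the filter through M2 alone and are a description. With TGF-β at 24 h, 41 members had all 3 M2 libraries above all 3 of M1 and 12 had them all below, against 3.63% and 55.3% of all genes. Most genes therefore read lower in M2 in this table, and rescaling by the median of ratios moved the all-gene median from -0.74 to -0.19 with TGF-β and from -0.82 to -0.25 with SB at 24 h. After that scaling 48 members were higher and 2 lower at 24 h of TGF-β (14.7% and 18.5% of all genes), and 51 higher and 1 lower at 24 h of SB (15.8% and 23.8%).

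**Figure D3:**
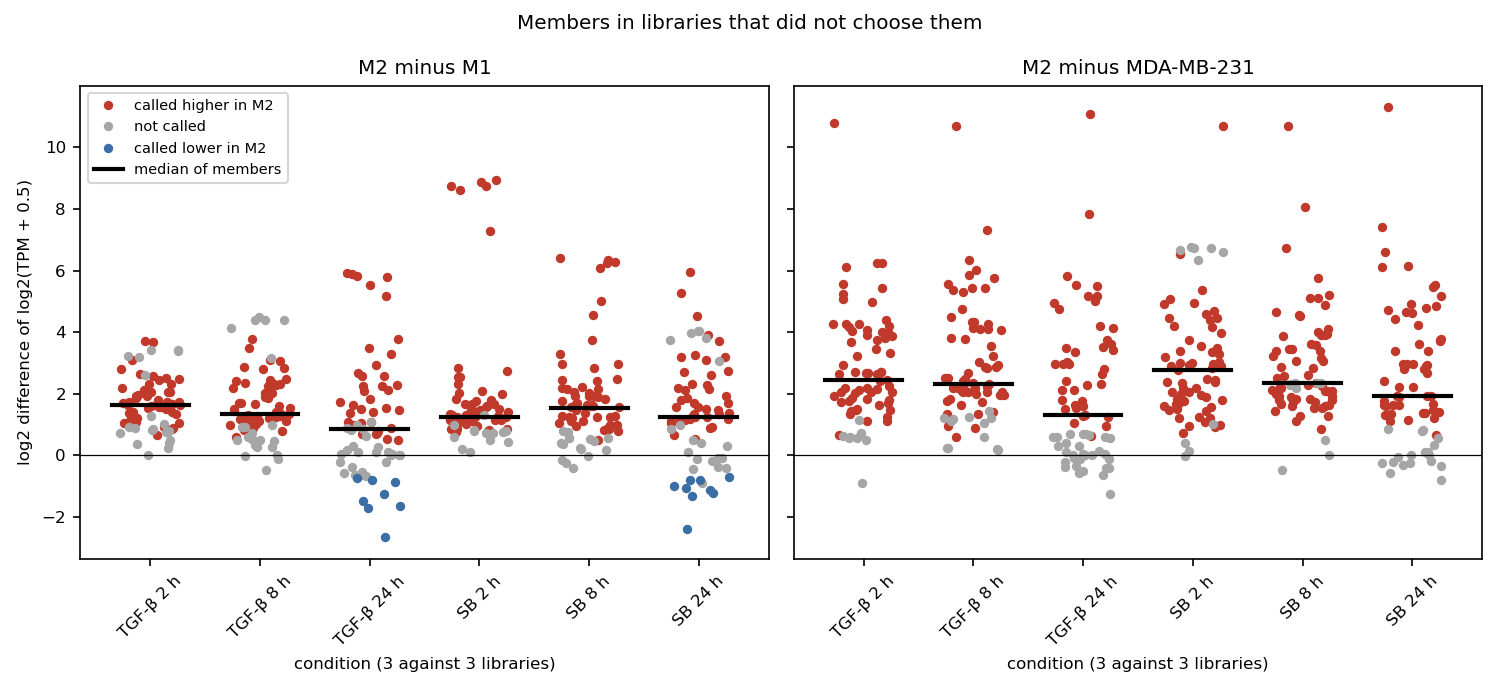
Difference of M2 from M1 (left) and from MDA-MB-231 (right) in log2(TPM + 0.5) for each member in 6 conditions that did not choose the members; colours mark limma calls at an adjusted p under 0.05 and bars the median. Most points lie above 0 in each condition, and 8 and 9 members are called lower than M1 at 24 h of TGF-β and SB. Of the members drawn, 65 passed the filter in M1 by itself and 38 in MDA-MB-231 by itself. The rest of each panel passed through M2 alone and were bound to read higher there.

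A core of 27 members was higher than M1 in all 6 conditions, as were 102 of 20927 genes tested (0.487%); 25 of the 27 were among the 65 that passed in M1. Rank 9 was one of them. Its difference from M1 was 3.67 on the log2 scale at 2 h of TGF-β (SE 0.20, limma adjusted p = 2.65e-14) and 3.77 at 24 h (SE 0.20, limma adjusted p = 6.25e-15). Rank 61 was higher by 1.93 to 3.20 in the 6 conditions (SE 0.36). The members that were lower than M1 at 24 h had been higher at 0 h by the rule, and 5 of them were lower in both arms, as were 39.1% of all genes. Rank 39 had 0.472, 0.465 and 0.714 TPM in M2 and 6.02, 5.97 and 6.35 TPM in M1 at 24 h of TGF-β, against 9.07, 9.45 and 11.8 and 2.73, 3.37 and 2.91 TPM without stimulation. The order of the 2 lines was thus turned, with no overlap at either time, and its log2 difference of -2.66 (SE 0.25, limma adjusted p = 6.14e-10) was -1.85 after rescaling.

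Ranks 1 to 6 were called higher than in M1 at 24 h of TGF-β and at 2 and 8 h of SB, and not in the other 3 conditions, with standard errors of 1.80 to 1.94. At 24 h of TGF-β the call rested on M2 replicate 2: without the libraries that stand apart the differences were 2.30 to 2.99 and none of the 6 was called (limma adjusted p from 0.116 to 0.176). Without those libraries all 6 were called at 8 h of TGF-β and at 2, 8 and 24 h of SB. None of the 6 was called against MDA-MB-231 in any of the 6 conditions, with or without these libraries. The libraries that did not choose the members therefore did not separate ranks 1 to 6 in M2 from MDA-MB-231, and the intervals are wide.

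Against MDA-MB-231 all calls came from the other 65 members. Of the 38 members that passed in MDA-MB-231 by itself, 30, 29 and 19 were higher in M2 at 2, 8 and 24 h of TGF-β, against 24.5%, 25.2% and 8.15% of genes that passed the same way. With SB, 29, 29 and 24 of the 38 were higher, against 8.52%, 14.4% and 6.04%. None of the 38 was called lower, where 16.8%, 17.8% and 31.9% of those genes were with TGF-β and 23.3%, 20.3% and 40.9% with SB; by limma's unadjusted p under 0.05, 1 member was lower at 24 h in each arm. The median log2 difference over the 38 was 2.04 at 2 h and 0.83 at 24 h of TGF-β, and 2.19 and 1.65 with SB.

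The other 33 members were tested through M2 alone, so their higher values were set by the filter. Over all 71 the counts were 63, 59 and 41 with TGF-β (29.5%, 30.8% and 11.2% of all genes tested) and 61, 62 and 53 with SB (12.6%, 17.2% and 8.80%). Without the libraries that stand apart they were 63, 58 and 42 with TGF-β, with 1 member lower at 24 h, and 60, 62 and 53 with SB.

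From 0 h onward the changes in M2 are a description, since the 0 h libraries chose the members for being high there. At 24 h of TGF-β, 34 members were under 0.5 times their own mean at 0 h and 11 over 2 times it, and at 24 h of SB 30 and 8. Ranks 1 to 6 were among the 11 through M2 at 24 h of TGF-β replicate 2 (rank 1 at 6980 TPM). They were among the 30 through M2 at 0 h of SB replicate 1 (rank 1 at 40065 TPM). These counts were not made without those libraries or over all genes. At 2 h these counts were 3 and 2 with TGF-β and 5 and 0 with SB. Over ranks 7 to 71 the median of the group means went from 8.51 TPM in non-stimulated M2 to 8.75, 8.64 and 3.94 TPM at 2, 8 and 24 h of TGF-β, and from 9.40 TPM to 5.51, 8.09 and 6.32 TPM in the SB arm. At 24 h of TGF-β 14 of the 65 had a mean under 0.5 TPM, at 24 h of SB 5, and at 0 h none. The summed TPM did not fall with the median: in single libraries it was 4390 to 5881 without stimulation and 6258 to 7482 at 24 h of TGF-β. Rank 61 made up much of that sum, with 2217, 2105 and 2963 TPM without stimulation and 5003, 4030 and 4323 TPM at 24 h of TGF-β. The higher sum therefore does not describe the members as a set.

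Between 2 and 24 h, libraries that had not chosen the members, 38 members fell and 7 rose with TGF-β, against 44.4% and 3.26% of all genes, and 15 fell and 16 rose with SB, against 13.8% and 3.79%. The share that fell with TGF-β, 53.5%, was near the background. After rescaling by the median of ratios 23 fell and 23 rose with TGF-β (15.2% and 15.8% of all genes), and 10 fell and 27 rose with SB (10.2% and 12.1%); the all-gene median moved from -0.73 to -0.09 with TGF-β and from -0.36 to -0.10 with SB. In both arms 14 members fell and 4 rose, against 11.4% and 1.26% of all genes. Without the libraries that stand apart 34 fell and 7 rose with TGF-β and 17 fell and 13 rose with SB, and the median log2 difference over the members with TGF-β was -1.11 in place of -0.82. Leaving out M2 at 2 h of TGF-β replicate 2 or M2 at 24 h of TGF-β replicate 1 or 3 took the count that rose with TGF-β from 7 to 4, 4 and 3.

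TGF-β and SB were compared at matched times, the ligand against the block of its receptor. At 2 h, 7 members were higher and 1 lower with TGF-β in M2, against 4.35% and 0.13% of all genes. At 8 h, 7 were higher and 11 lower, against 7.41% and 1.04%. At 24 h, 3 were higher and 27 lower, against 3.69% and 8.54%, and the median log2 difference was -0.57 against -0.10 over all genes. Of the members, 34 had all 3 TGF-β libraries below all 3 SB libraries at 24 h and 5 had them above, against 23.0% and 10.8% of all genes. After rescaling, 28 were lower and 8 higher (9.11% and 10.1% of all genes), and 26 of the 27 lower calls and the 3 higher calls remained. Without the libraries that stand apart 25 were lower and 2 higher at 24 h and the median over the members was -0.85; at 2 h 3 were higher and 2 lower, and at 8 h the counts were again 7 and 11.

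Lower levels with TGF-β at 24 h were not peculiar to genes low in MDA-MB-231. Among the 36 genes that met every part of the rule except the MDA-MB-231 ratio, 18 were lower and 0 higher in the same comparison (limma), with a median of -0.74; after rescaling 17 were lower and 3 higher. No test of the difference between these 2 lists was made. The counts at the earlier times were less stable. Without M2 at 2 h of SB replicate 1 the count of members higher at 2 h was 20, and without M2 at 2 h of SB replicate 2 or 3 or M2 at 2 h of TGF-β replicate 2 or 3 it was 3 to 4. Without M2 at 8 h of TGF-β replicate 1 the count of members higher at 8 h was 11, and without any one of M2 at 8 h of TGF-β replicates 2 and 3 and M2 at 8 h of SB replicates 1 and 2 it was 3. The count of lower members at 24 h stayed between 24 and 27 when any one library of the 2 groups was left out, and the 3 higher members became 1 without M2 at 24 h of TGF-β replicate 3 or M2 at 24 h of SB replicate 1 or 2.

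A total of 9 members were lower with TGF-β at both 8 and 24 h, as were 0.675% of all genes. The largest difference at 24 h was that of NONHSAG013330.2 (rank 56). In M2 it had 38.3, 37.3 and 43.3 TPM without stimulation, 19.3, 15.3 and 18.3 TPM at 2 h, 16.1, 15.4 and 14.96 TPM at 8 h and 3.52, 2.04 and 1.78 TPM at 24 h of TGF-β. With SB it stayed high, at 45.2, 35.9 and 24.9 TPM at 2 h, 38.3, 37.0 and 44.8 TPM at 8 h and 44.0, 49.5 and 42.5 TPM at 24 h. The arms did not overlap at any of the 3 times. The log2 difference of TGF-β from SB was -0.95 at 2 h (limma adjusted p = 0.0243), -1.34 at 8 h (limma adjusted p = 0.00103) and -4.00 at 24 h (SE 0.23, limma adjusted p = 3.29e-10). Single libraries moved the last value between -4.25 and -3.84.

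NONHSAG013330.2 also answered in M1, by less. There it had 7.26, 9.54 and 9.69 TPM at 24 h of TGF-β and 19.3, 21.9 and 17.6 TPM with SB, a log2 difference of -1.11 (SE 0.19, limma adjusted p = 0.000645). The difference in M2 exceeded that in M1 by -2.89 (SE 0.30, limma adjusted p of the interaction = 1.26e-07). At 24 h of TGF-β the M2 libraries of NONHSAG013330.2 lay below all 3 of M1, the reverse of 0 h.

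NONHSAG025130.2 (rank 29) had the next largest difference among the lower members, and rose in the SB arm. It had 71.6, 67.7 and 43.7 TPM at 2 h, 91.3, 119.9 and 115 TPM at 8 h and 57.0, 48.1 and 50.2 TPM at 24 h of TGF-β in M2. With SB it had 126, 133 and 70.1 TPM at 2 h, 296, 218 and 295 TPM at 8 h and 297, 309 and 243 TPM at 24 h. Between 2 and 24 h the SB arm rose by 1.41 on the log2 scale (SE 0.23, limma adjusted p = 0.000391). The 24 h difference was -2.43 in M2 (SE 0.23, limma adjusted p = 4.27e-07) and -1.25 in M1, and that between the lines was -1.18 (SE 0.28, limma adjusted p = 0.0188). In MDA-MB-231 NONHSAG025130.2 did not exceed 4.52 TPM in any library.

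**Figure D4:**
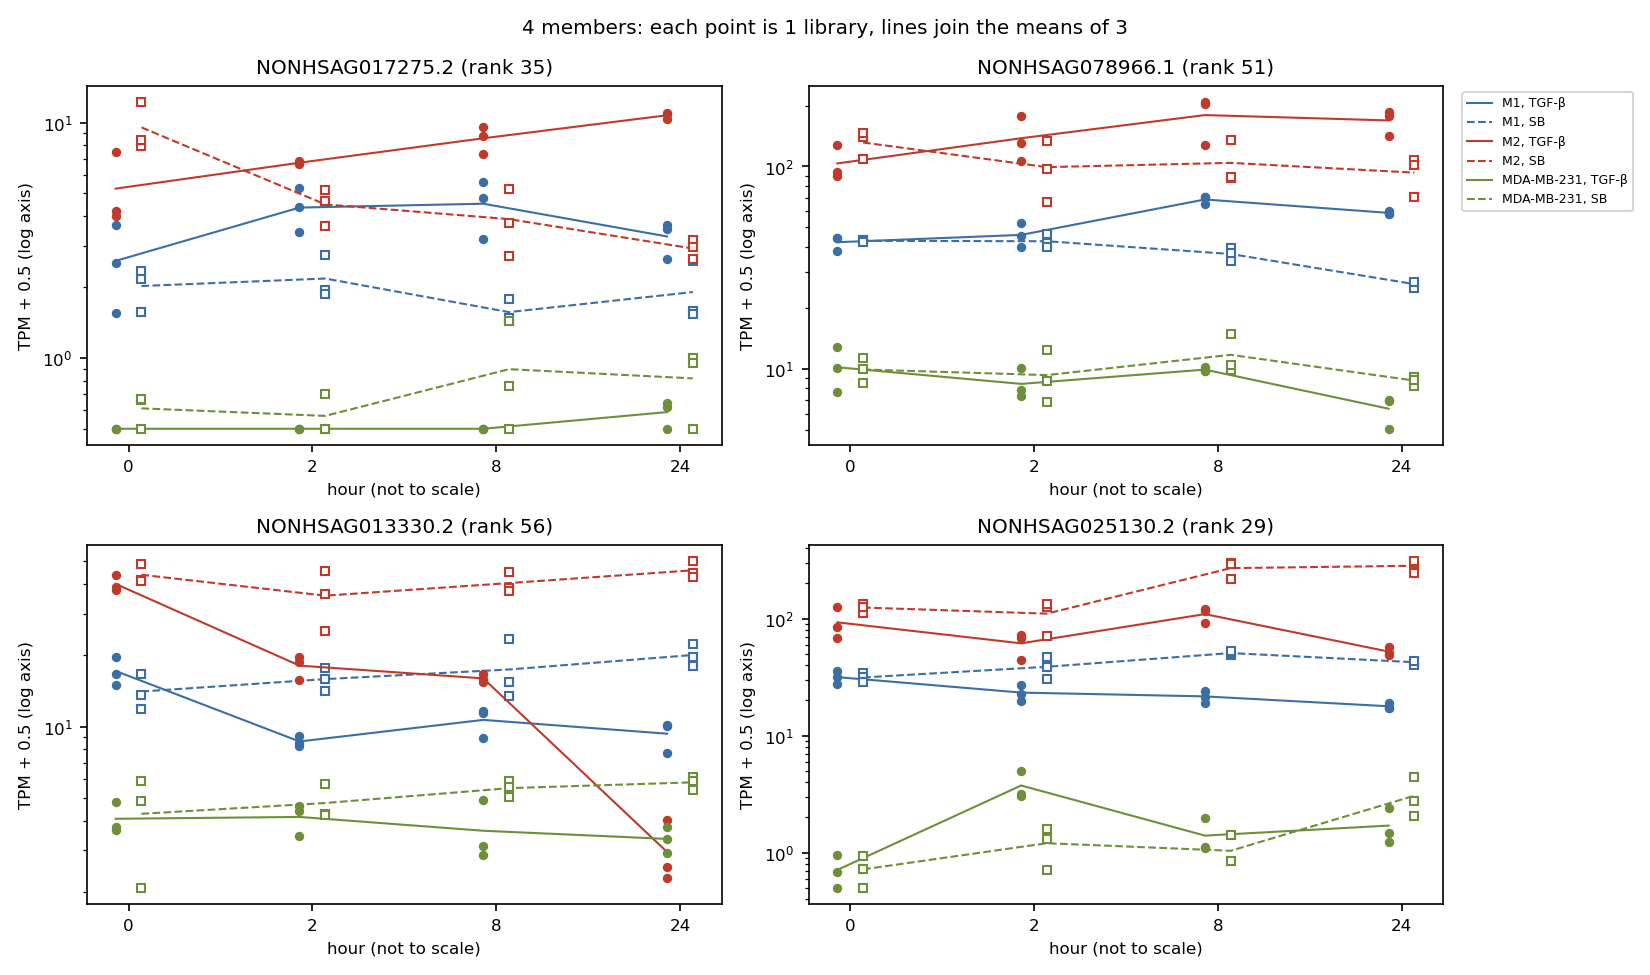
TPM + 0.5 (log axis) of 4 members at 0, 2, 8 and 24 h in the TGF-β arm (filled circles, solid lines) and SB arm (open squares, dashed lines) of M1, M2 and MDA-MB-231; points are libraries and lines join the means of 3. In M2 the arms part upward for rank 35 and downward for rank 56, whose TGF-β libraries end at 1.78 to 3.52 TPM against 42.5 to 49.5 TPM with SB.

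Few members went the other way. NONHSAG017275.2 (rank 35) had 3.53, 3.70 and 7.001 TPM without stimulation, 6.22, 6.40 and 6.15 TPM at 2 h, 6.84, 8.31 and 9.09 TPM at 8 h and 10.5, 9.86 and 10.4 TPM at 24 h of TGF-β in M2. With SB it had 4.69, 4.16 and 3.14 TPM at 2 h and 2.67, 2.45 and 2.13 TPM at 24 h, after 7.49, 11.7 and 7.94 TPM in the earliest SB libraries. Its difference at 24 h was 1.89 (SE 0.24, limma adjusted p = 1.37e-05), and it rose by 0.67 between 2 and 24 h of TGF-β (limma adjusted p = 0.0271). Its M1 libraries had 2.13, 3.19 and 3.04 TPM with TGF-β and 2.09, 1.08 and 1.04 TPM with SB at 24 h, groups that did not overlap and were not called as deposited; after rescaling the M1 difference was 1.06 (limma adjusted p = 0.0147).

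NONHSAG078966.1 (rank 51) had 186, 141 and 178 TPM with TGF-β and 107, 101 and 70.2 TPM with SB at 24 h in M2, and 57.9, 57.9 and 59.6 TPM against 26.1, 24.6 and 26.5 TPM in M1. Neither line showed overlap between the arms. The log2 difference was 0.87 in M2 (SE 0.27, limma adjusted p = 0.0379) and 1.17 in M1 (SE 0.11, limma adjusted p = 9.9e-07). The M2 call for NONHSAG078966.1 was lost on leaving out M2 at 24 h of TGF-β replicate 1 or 3 or any one of the 3 M2 libraries at 24 h of SB, with adjusted p of 0.0518 to 0.171. The remaining higher member, rank 10, had 9.14, 12.2 and 14.2 TPM with TGF-β against 7.24, 7.04 and 5.51 TPM with SB (log2 difference 0.79, limma adjusted p = 0.04), and in M1 2.33, 1.54 and 3.59 TPM against 0, 0.271 and 0.669 TPM.

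The same 24 h comparison was made in the other lines. In M1, 15 of the 65 members tested were lower with TGF-β and 4 higher, against 9.99% and 4.07% of all genes; after rescaling 11 were lower and 12 higher (5.74% and 7.60%). Of the 27 members lower in M2 and the 15 lower in M1, 11 were shared, which is 40.7% of the first and 73.3% of the second, and 2 of the 3 and 4 higher members were shared. In the values as deposited no member was called in opposite directions in M1 and M2. After rescaling 4 were: rank 9, higher in M2 and lower in M1, and ranks 8, 39 and 70, lower in M2 and higher in M1. Neither shared nor opposite calls in M2 and M1 were counted over all genes. These overlaps are therefore a description and not a trait of the members. Rank 43 was lower in all 3 lines: at 24 h it had 96.3, 65.1 and 76.1 TPM with TGF-β against 429, 465 and 338 TPM with SB in M2, and 88.9, 96.3 and 86.6 against 458, 451 and 427 TPM in M1. In MDA-MB-231 it had 18.2, 12.9 and 16.6 TPM against 36.8, 41.3 and 36.0 TPM. At 24 h the M1 and M2 levels of rank 43 overlapped in each arm, although the rule had placed M2 at 2.92 times M1 at 0 h. In MDA-MB-231, 4 of the 38 members tested were lower and 1 higher, against 2.82% and 0.641% of all genes, and the same counts were found without the library of this line that stands apart.

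A test of the difference between the responses of M2 and M1 called 9 members with a lower and 1 with a higher value in M2, against 1.26% and 0.851% of all genes; with median-of-ratios scaling 11 and 2 were called (2.75% and 2.16%), and without the libraries that stand apart 8 and 1. Besides NONHSAG013330.2 and NONHSAG025130.2, the lower members were ranks 8, 18, 19, 31, 39, 49 and 70, with log2 values from -3.69 to -1.29. These members are described because they passed this test. The rule placed all members lower in M1 at 0 h, and changes of low genes are understated on log2(TPM + 0.5). Whether that affects these counts was not tested. The counts and shares above include genes that did not pass the filter in M1 by itself. Rank 49 was such a gene: at 24 h in M1 it had 0.0638, 0.186 and 0.543 TPM with TGF-β. With SB it had 0.00859, 0.105 and 0 TPM there, so its M1 response was near the floor. Rank 18 had 17.8, 18.2 and 17.9 TPM with TGF-β and 98.4, 94.9 and 89.8 TPM with SB in M2, and 1.05, 1.07 and 2.30 against 3.11, 2.29 and 1.01 TPM in M1. Its SB libraries in M2 at 2 h had been at 29.04, 23.8 and 13.4 TPM, and between 2 and 24 h its SB arm rose by 2.14 on the log2 scale (limma adjusted p = 1.51e-06).

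Rank 8 fell with TGF-β in M2, from 23.8, 18.7 and 21.4 TPM at 2 h to 2.22, 3.85 and 5.43 TPM at 24 h, while 11.6, 11.7 and 16.4 TPM were left with SB. In M1 it had 2.11, 0.744 and 1.86 TPM with TGF-β and 0.400, 0.478 and 0.745 TPM with SB. Rank 19 changed in M1 alone among these 2 lines by the calls: 5.91, 5.23 and 5.65 TPM with TGF-β against 0.123, 0 and 0.149 TPM with SB. In M2 its libraries overlapped, at 23.7, 32.2 and 31.0 TPM and 25.8, 47.4 and 37.4 TPM, and the difference between the lines was -3.69 (SE 0.43, limma adjusted p = 7.75e-07). Rank 19 in M1 had stood at 3.79, 6.58 and 3.84 TPM in the earliest SB libraries, so that the SB arm of M1 lost it over 24 h and that of M2 did not.

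Rank 9 was the single member with a higher value in M2. In M1 it had 1.20, 0.802 and 0.797 TPM with TGF-β against 3.62, 5.12 and 4.50 TPM with SB at 24 h, and in M2 16.2, 19.5 and 21.2 TPM against 11.6, 12.8 and 15.03 TPM. The M1 difference was -1.78 (SE 0.24, limma adjusted p = 4.9e-05), and that between the lines was 2.29 (SE 0.29, limma adjusted p = 4.39e-06). The M2 groups did not overlap either, in the opposite direction; the log2 difference of 0.51 was not called as deposited (limma adjusted p = 0.145) and was 0.79 after rescaling (limma adjusted p = 0.00721).

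**Figure D5:**
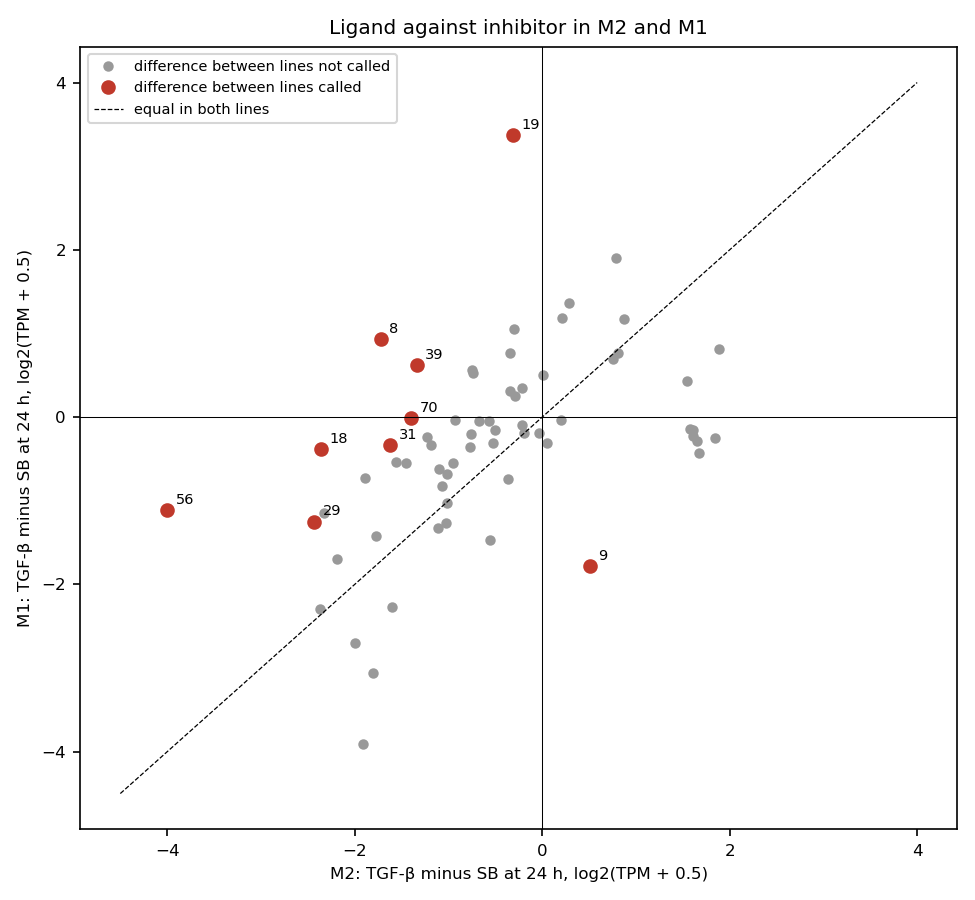
TGF-β minus SB at 24 h in log2(TPM + 0.5) in M2 (horizontal) and M1 (vertical) for the 65 members tested in both lines; large red points, labelled by rank, had a called difference between the lines and the dashed line marks equal values. Rank 56 lies farthest left at -4.00 and rank 19 highest at 3.37 in M1; rank 49, also called between the lines, was not tested in M1 alone and is not drawn.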

How the data were processed

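Total RNA of 72 samples (3 lines, 2 agents, 4 times, 3 replicates) was sequenced; groups were taken from the sample titles. The values deposited by the authors are TPM of 96411 lncRNA genes, listed by NONCODE identifier, on the build GRCh38; per the submitters' processing notes StringTie 1.3.6, HISAT2 2.2.0, cutadapt 2.10 and FastQC were used. Strand setting, parameters and annotation release were not given in the sources used here, so reads of overlapping, antisense or near-identical genes may be shared. TPM were scaled over lncRNA genes alone and keep no depth. The series text speaks of 36 samples, and 72 are listed.

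The rule was applied to the TPM as deposited; 71 genes met it, under its limit of 100, and all were used. In each fit limma 3.58.1 (lmFit, contrasts.fit, eBayes with trend, two-sided; R 4.3.3, the data.table package, 1.17.8) was run on log2(TPM + 0.5) for genes that reached 0.5 TPM in 3 or more of its libraries. Calls were made at a Benjamini-Hochberg adjusted p under 0.05, over all genes tested. The 20 contrasts used only libraries at 2, 8 and 24 h, 18 per fit of 1 line and 36 per fit of 2 lines; libraries at 0 h chose the members and stayed out. The script was tested on simulated data.

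The naming rule took members called for TGF-β against SB at 24 h in M2 whose arms did not overlap, by size, and always described ranks 1 to 10 and the genes next to the limit. None of the identifiers matched the reference tables (0 matches), so 2 identifiers per direction are printed and the list of known lncRNA genes was not used. The members, lists and tests were chosen with earlier results of these data known. Other settings were pseudocounts of 1 and 0.1, 2 other filters, median-of-ratios scaling, a total without the 10 genes of highest TPM, a replicate block, libraries at 0 h added, only the groups compared, and each library left out. For the rule, T0 or SB libraries alone were also tried. A further 3 settings, without the 4 libraries that stand apart or the genes that rise in them, were chosen after seeing the data, as were the counts over members that passed the filter in M1 or MDA-MB-231 by itself.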

Additional observations from a re-analysis of the deposited data

Results flagged for a closer look

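The difference between TGF-β and SB at 24 h was not the same in M2 and M1 for 10 members by limma's test of the interaction: 1 member had a higher value in M2 and 9 a lower one. Over all genes tested, 0.851% had a higher and 1.26% a lower value. Members were chosen to be lower in M1, and changes of low genes are understated on this scale. Rank 49, among the 9, did not pass the filter in M1 by itself. For NONHSAG013330.2 the M2 difference less that of M1 was -2.89 on the log2 scale, with all 3 TGF-β libraries below all 3 SB libraries in each line. For NONHSAG025130.2 it was -1.18, again with no overlap between the arms in either line. Why the lines differed was not tested.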

How the results depend on the processing

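Every count of members called was recomputed under 11 other settings, and the counts for M2 against M1 and MDA-MB-231 that were higher stayed within 1.5 times in all of them. Counts that moved further, with the cause not tested, were as follows. For TGF-β against SB at 2 h in M2 (7 higher, 1 lower), the higher count was 4 with no filter, 3 without the 10 genes of highest TPM in the total, 2 with only the groups compared and 3 without the libraries that stand apart. The lower count was 4 with median-of-ratios scaling, 2 with a mean TPM of 1 or more, 0 without the 10 highest genes, 6 with only the groups compared, and 2 without the libraries that stand apart or the genes that rise in them. At 8 h (7 higher, 11 lower) 4 were higher with a pseudocount of 0.1, 3 with no filter and 4 without the 10 highest genes, and 17 lower with median-of-ratios scaling. At 24 h (3 higher) 1 was higher with no filter, 8 with median-of-ratios scaling and 6 with only the groups compared. From 2 to 24 h of TGF-β (7 higher, 38 lower) 4 were higher with no filter and 12 without the 10 highest genes, and median-of-ratios scaling gave 23 higher and 23 lower; for SB it gave 27 higher (16). With that scaling 12 members were higher with TGF-β in M1 (4; 7 without the 10 highest genes) and 2 in MDA-MB-231 (1), and 2 and 1 members were lower in M2 than in M1 at 24 h of TGF-β and of SB (8 and 9). For M2 minus M1 the higher count of 1 was 2 with a pseudocount of 1, a mean TPM of 1 or more, rescaling by the median of ratios or only the groups compared. Against MDA-MB-231, 1 member in place of 0 was lower at 2 h of TGF-β with only the groups compared, and at 24 h with a pseudocount of 0.1 or without the libraries that stand apart. The rule kept 45 of 71 members with the non-stimulated controls alone, 63 with the earliest SB libraries alone, 65 with median-of-ratios scaling and 68 without the libraries that stand apart, and ranks 1 to 6 in each. The genes it chose numbered 67 with the non-stimulated controls alone. With the earliest SB libraries alone, and with median-of-ratios scaling, it reached its limit of 100.

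With single libraries left out, TGF-β against SB gave 3 to 20 higher and 0 to 2 lower at 2 h (2 lower without SB replicate 3, 0 without any TGF-β library or SB replicate 2), 3 to 11 higher at 8 h and 1 to 3 higher at 24 h. From 2 to 24 h of TGF-β 3 to 5 were higher. M2 minus M1 gave 1 to 2 higher (2 without M2 at 24 h of SB replicate 2), and M2 against MDA-MB-231 0 to 1 lower at 24 h of either arm (1 without M2 replicate 2 of that arm). The rule kept 57 to 71 members.

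Same-numbered libraries did not deviate together in the median: correlations of their deviations had medians of -0.011 in M2, -0.001 in M1 and 0.006 in MDA-MB-231. Medians near 0 cannot exclude that the numbers pair some samples. In M2 and in MDA-MB-231, 5 of 45 same-numbered pairs exceeded 0.1, up to 0.149 and 0.140. Differently numbered pairs reached 0.224 and 0.133. With the replicate block 1 member was higher at 24 h of TGF-β in M2 and 2 in MDA-MB-231, NONHSAG078966.1 was not called, and no other count moved by over 1.5 times. Without read depth the counting error of low genes is unknown.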

Other observations

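The rule was also applied with another line as the high one, in place of the 71 genes of M2. With M1 high, 385 genes met it with all 6 M1 libraries above all 6 of MDA-MB-231, and 342 with all 6 above M2. With MDA-MB-231 high and all 6 of its libraries above M1, 666 genes met it. These counts describe the 0 h libraries, with no test and no limit on the number of genes.

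Among members outside the first 6, ranks 14 and 25 have consecutive identifiers. At 0 h they had mean TPM of 4.16 and 2.78 in M2, of 0.550 and 0.430 in M1, and both were listed at 0 in all 6 MDA-MB-231 libraries at that time. Whether the 2 entries overlap was not analysed here.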
